A study of Mus musculus with 4 samples.

Results

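The 10 genes described here belong to the S100 family: S100a5, S100z, S100a1, S100a6, S100a8, S100a9, S100a10, S100a11, S100a13 and S100b. They were taken by name from the 55511 genes of a single-cell RNA-seq table of the mouse main olfactory epithelium, and each was followed through the annotated cell types, the clusters of immune barcodes, the clusters of mature olfactory sensory neurons (OSNs) and the populations of OSNs that express the same odorant receptor gene. The cells came from 4 male C57BL/6 mice aged 8 weeks and kept at rest. There was 1 group: the mice carried no stated transgene, received no stated odorant, were killed with pentobarbital, and shared the same housing. Dissociated cells were sorted as Hoechst+ and DRAQ7-, that is nucleated and alive, before loading, and each mouse gave 1 library (the labels speak of suspension pools). The table held 21809 barcodes, of which 15859 were retained by the study with a cell type. It also assigned 960 receptor populations, and 134 of them had 20 or more neurons (4143 neurons together). The minimum of 20 was a choice: 14 populations had 19 neurons, 11 had 20 and 12 had 21.

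S100 proteins are small calcium sensors. Most pair into dimers and, when calcium fills their EF-hand loops, open a groove that binds a partner protein. Mature OSNs detect odorants with receptors coupled to cyclic AMP, through which calcium enters the cilia, and in these neurons S100a5 is known as a gene whose level follows sensory input. The relatives have other roles. S100a8 and S100a9 form calprotectin, the zinc-binding heterodimer stored by neutrophils and recognised by Tlr4. S100a10 has lost calcium binding and holds Anxa2 and Ahnak in a complex at the plasma membrane, S100a11 binds Anxa1, and S100a6 (calcyclin) binds Cacybp. S100a13 takes part in the release of proteins that lack a signal peptide, S100a1 is best known for calcium handling in heart muscle, S100b is the classical glial member, and little is known of S100z. Ager (RAGE) is a receptor for several members outside the cell.

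In GRCm38 coordinates 8 of the 10 genes lay on chromosome 3, in 2 groups. S100a1 (ENSMUSG00000044080) covered chr3:90511034-90514392 on the minus strand, and S100a13 (ENSMUSG00000042312) covered chr3:90514435-90524581 on the plus strand, so that they point away from each other. S100a5 (ENSMUSG00000001023, chr3:90608523-90611780) was followed on the same plus strand by S100a6 (ENSMUSG00000001025, chr3:90612882-90624181), with 1101 bases between them. S100a8 (ENSMUSG00000056054, chr3:90668978-90670035, plus) and S100a9 (ENSMUSG00000056071, chr3:90692632-90695721, minus) faced each other across 22596 bases. S100a11 (ENSMUSG00000027907, chr3:93520488-93526287) and S100a10 (ENSMUSG00000041959, chr3:93555080-93564643) lay farther along on the plus strand. S100z (ENSMUSG00000021679) was at chr13:95477268-95478721 on the minus strand and S100b (ENSMUSG00000033208) at chr10:76253853-76261159 on the plus strand.

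Of the 10 genes, 9 had an entry in the RefSeq promoter table (GRCm38.p6), cut here to the bases before the annotated gene. For the members whose levels are described most closely, 3 stretches are shown 5′ to 3′ on the strand of the gene, and capitals mark ATTGG, the reverse complement of the CCAAT motif. S100a5 is shown because its level varied most between receptor populations (chr3:90608272-90608521), and S100z because it separated the receptor classes (chr13:95478722-95478905). The 42 bases shared by S100a1 and S100a13 (chr3:90514393-90514434, plus strand) are shown because both genes were highest in the same microvillar cells.
S100a5: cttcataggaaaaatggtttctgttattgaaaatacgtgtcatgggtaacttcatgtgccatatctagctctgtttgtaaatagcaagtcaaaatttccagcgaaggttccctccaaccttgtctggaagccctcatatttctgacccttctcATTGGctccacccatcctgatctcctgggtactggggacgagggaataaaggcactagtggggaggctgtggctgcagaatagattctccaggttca
S100z: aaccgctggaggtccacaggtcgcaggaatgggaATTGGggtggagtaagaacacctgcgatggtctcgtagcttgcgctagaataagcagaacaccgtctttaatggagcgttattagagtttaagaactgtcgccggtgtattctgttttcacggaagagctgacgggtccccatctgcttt
between S100a1 and S100a13: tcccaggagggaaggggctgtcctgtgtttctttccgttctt
On either strand, CCAAT was found once each before S100a5, S100z and S100a6 and at 2 places before S100b, whereas 33.8% of all 32851 promoters of the table held it. The motifs were searched in the full 250 bases before each RefSeq start, and positions are counted from there, so the match stood 97 bases before the RefSeq start of S100a5 and 216 before that of S100z, which lies inside the annotated gene. TATAAA was found for S100a8 only, 30 bases before its RefSeq start and inside the longer gene of the annotation (12.4% of all promoters), CCCNNGGG before S100b only (11.8%), and TAATTA, a homeodomain core, before none of the 9 (4.84%). These are matches of letters and not measured binding.

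The libraries held 23157467 to 32382702 UMIs (unique molecular identifiers, each a captured RNA molecule), with medians of 3624.5 to 5717.5 per barcode. Sequencing was from the 3′ end, so a level is given here as UMIs of a gene per 10000 UMIs of the cells of a type, pooled within a mouse, and is compared between cells for the same gene and not between genes. Barcode sequences were shared by 2 libraries in 54 cases. All 7 mature OSN markers were highest in the cells labelled mOSN, Ascl3, Cftr, Foxi1 and Coch (ionocyte genes) in those labelled Mv2, and Trpm5, Chat, Pou2f3, Avil and Sh2d7 (tuft cell genes) in those labelled Mv1, the 2 microvillar types. The label HBC2 (horizontal basal cells) held only in part by its markers: it held 390 cells with Krt5, a basal cell keratin, and no Cyp2g1, a sustentacular enzyme, beside 96 cells with Cyp2g1 and no Krt5. The label Sus (sustentacular cells) also held in part. Cyp2g1, Cyp1a2 and Ermn were highest there, but Cbr2 and Sec14l3 were at 70.83 and 15.2 in HBC2 against 1.694 and 0.1998 in Sus. The Bowman gland genes Aqp5 and Gpx6 were highest in Sus (16.59 and 10.77), while Sox9, Muc5b and Bpifb9b were highest elsewhere. The label is used below as the study gave it. Cell types and clusters were made by the study from these genes among others, so that differences between them are given as levels with the spread over mice and without a test.

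S100a5 held 1.41% of all UMIs in the table. In mature OSNs (mOSN) its level was 245.2, 207.2, 260.2 and 246.7 UMIs per 10000 in mouse 1 to 4 (239.8 ± 22.8, SD, n = 4). In late immature neurons (iOSN2) it was 183.4, 151.2, 140.3 and 155.0 (157.5 ± 18.4). The 2 ranges did not overlap, and the mean was 1.52-fold higher in mature neurons. The step before was far larger: in early immature neurons (iOSN1), which express the growth cone gene Gap43, the level was 8.89, 4.82, 3.89 and 11.6, so that iOSN2 were 21.55-fold and mature neurons 32.8-fold higher. Immediate neuronal precursors (INP) were at 4.04 ± 2.51 and globose basal cells (GBC), the dividing stem cells, at 3.08 ± 2.40. The levels before iOSN2 rested in part on few cells: in mouse 1, 2 cells held 69.5% of the iOSN1 UMIs, 85.6% of those in INP and 88.1% of those in GBC. Without the cells that had 30 or more S100a5 UMIs, a limit chosen after the values were seen, iOSN1 were at 1.45, 1.87, 1.985 and 2.58, INP between 0.835 and 1.35 and GBC between 0.613 and 1.15, so that the folds over iOSN1 above depend on these cells.

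**Figure D1:**
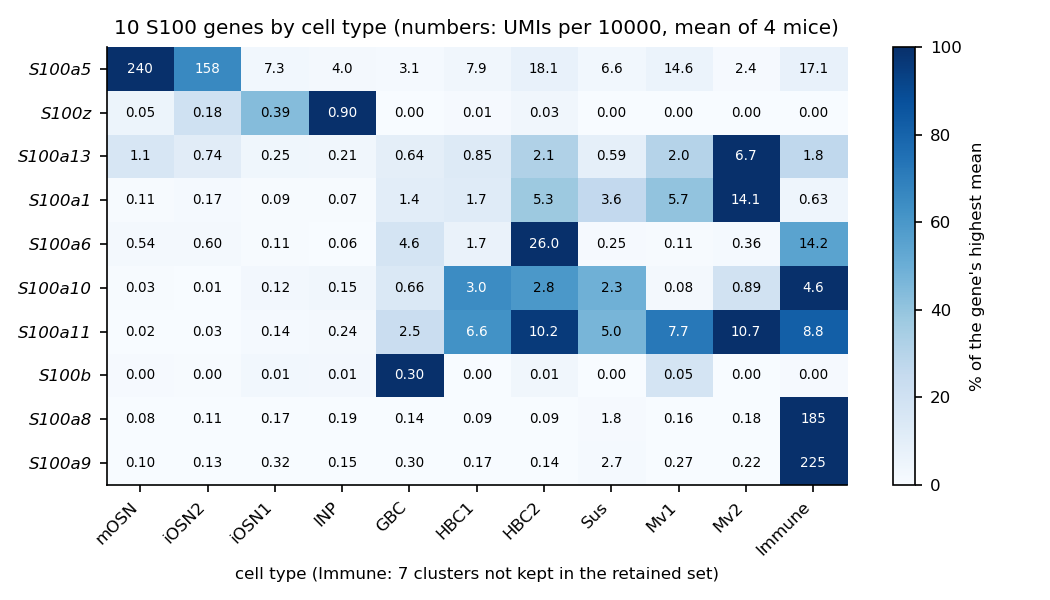
Levels of the 10 S100 genes (rows) by cell type (columns). Each cell prints the mean of 4 mice in UMIs per 10000, and the colour gives it in percent of the highest mean of that gene. S100a5 peaked in mature neurons (240), S100z in precursors (0.90), S100a1 and S100a13 in Mv2, S100a6 in HBC2, and S100a8 and S100a9 in immune barcodes.

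Outside the neurons S100a5 ran from 2.39 in Mv2 to 18.1 in HBC2, and the ranges of all neighbours in that order overlapped. In some types most of these UMIs sat in few cells. In HBC2 mouse 2 stood at 40.1 against 8.47 to 12.5 in the others, and 2 cells held 92.1% of its UMIs. Without the 20 HBC2 cells that had 30 or more S100a5 UMIs the level was 0.997, 0.973, 1.03 and 1.19 in the 4 mice. In Mv1 mouse 2 stood at 45.5 with 98.2% of the UMIs in 2 cells, and the others lay between 1.08 and 7.56. A UMI of S100a5 was found in 96.0% of mature OSNs (93.3% with every cell thinned to 2000 UMIs) at a median depth of 4861. It was also found in 42.2% of sustentacular cells, the supporting cells of the epithelium (18.7% thinned, median depth 5587). Shares of 18.5% in INP and 19.8% in Mv2 after thinning were close to this share and are not read as expression, and the share in iOSN1 was 26.8%. Free RNA was not measured, and its part in these shares was not tested.

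Mature OSNs had been divided by the study into 10 clusters, named after a leading gene and the dorsal (D.) or ventral (V.) side. S100a5 differed widely between them. In the Dlg2+ V. cluster it was 633.2, 509.9, 628.2 and 619.9 (597.8 ± 58.8), and in Dlg2+ D. 573.4, 576.9, 644.5 and 603.4 (599.6 ± 32.8). These overlapped, and both lay above all others in every mouse. Cd36+ V. (292.7 ± 34.6) and Cd36+ D. (264.2 ± 23.5) followed, then Ventral (207.9 ± 16.01), Cd55+ D. (205.9 ± 43.7), Dorsal (164.8 ± 13.5) and Cd55+ V. (113.4 ± 13.7). At the other end stood the clusters marked by Calb2, the calcium-binding protein calretinin. Calb2+ D. neurons were at 14.9, 19.4, 14.9 and 13.3 and Calb2+ V. neurons at 13.2, 9.78, 14.5 and 9.30. The ventral Dlg2+ neurons were thus 51.2-fold above the ventral Calb2+ neurons, and the dorsal ones 38.4-fold above the dorsal Calb2+ neurons. Along this order the mouse ranges were apart between Dlg2+ V. and Cd36+ V., between Cd36+ D. and Ventral, between Dorsal and Cd55+ V., and between Cd55+ V. and Calb2+ D., and overlapped at the other steps.

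**Figure D2:**
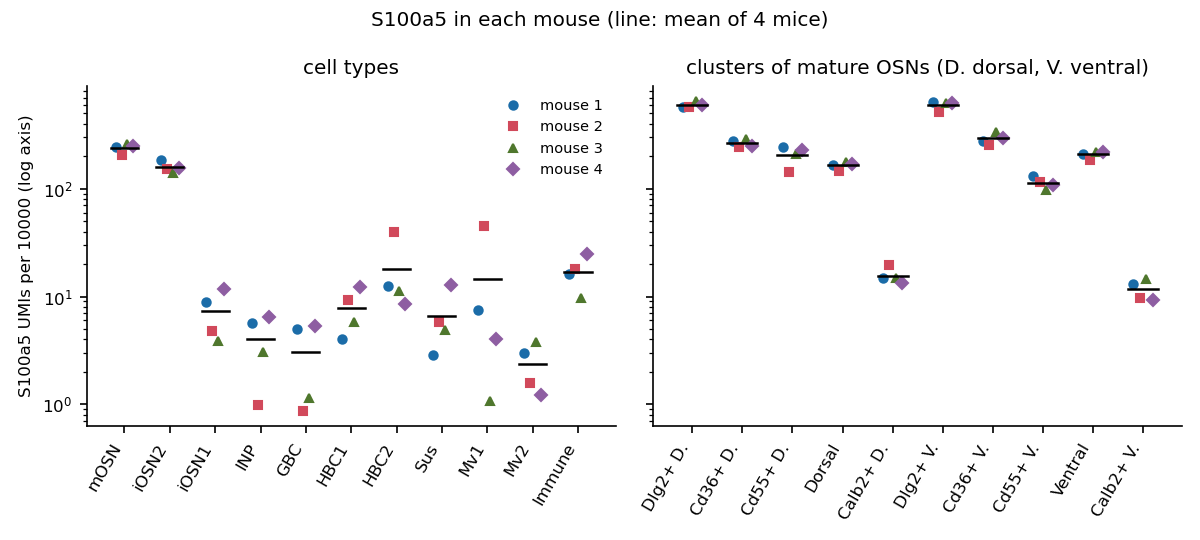
S100a5 in each mouse (symbols) by cell type (left) and by cluster of mature OSNs (right), in UMIs per 10000 on a log axis, with a line at the mean of 4 mice. Within neurons the 4 mice lie close together from about 600 in the Dlg2+ clusters to 11.7 in Calb2+ V., while in HBC2 and Mv1 mouse 2 stands above the others.

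The receptor populations spread still further. Over the 134 populations the mean S100a5 level ran from 2.03 to 904.5, with a median of 180.4. The ratio of the ends was 445.6, from 435.4 to 807.5 with a mouse left out (807.5 without mouse 4) and 85.42 over populations with 40 or more neurons. The 10th and 90th percentiles were 15.7 and 513.8. There were 15 populations under 20 and 16 over 500. The SD of the log2 means over populations was 1.97, whereas the median SD over mice within a population was 0.381. The order was shared by the mice: Spearman's rho between 2 mice over the populations was 0.909 to 0.948 in the 6 pairs. The rank of a population went little with its depth (rho −0.0388 with the median UMIs per neuron over the 134 populations).

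Of the 5 highest populations, neurons expressing Olfr166 stood first at 813.0, 693.6, 1069 and 1042 in mouse 1 to 4 (904.5 ± 181.5, 39 neurons), with a median of 418 S100a5 UMIs in a neuron. Olfr1271 (743.9 ± 296.0, 22 neurons), Olfr1326-ps1 (657.0 ± 91.7, 39 neurons), Olfr553 (618.8 ± 90.8, 21 neurons) and Olfr1018 (584.8 ± 170.7, 21 neurons) followed, and the ranges of these neighbours over mice overlapped. The receptor annotated as Olfr1326-ps1 carries a pseudogene name. At the low end, Olfr77 neurons were at 2.91, 0.990, 1.90 and 2.32 (2.03 ± 0.81, 21 neurons) and 47.6% of them had a UMI. Olfr972 (2.06 ± 1.34), Olfr1039 (2.06 ± 2.00), Olfr826 (2.38 ± 0.49) and Olfr411 (3.09 ± 0.91) stood beside it. These levels are of the size found in sustentacular or Mv2 cells, so that S100a5 in these neurons could not be told from background. Every mouse thus had neurons at 693.6 or more beside neurons at 5.05 or less under the same rest conditions.

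**Figure D3:**
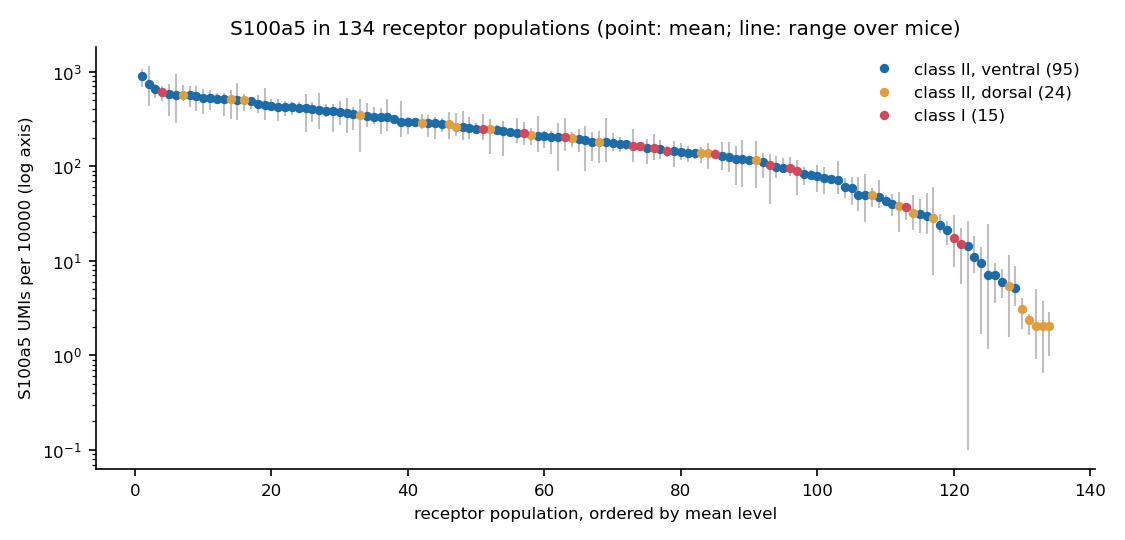
S100a5 in 134 receptor populations, ordered by mean level (horizontal axis, rank), in UMIs per 10000 on a log axis. Points are means over mice, coloured by receptor class and side, and grey lines run from the lowest to the highest mouse, with a range that reaches 0 drawn to 0.1. Points fall from 904.5 to 2.03, and all 3 colours occur over most of the range.

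Cluster and receptor identity went together only in part. The 7 populations with most neurons in Calb2+ D. had a median of 3.09, the 7 in Calb2+ V. 9.45, the 6 in Cd55+ V. 112.6 and the 22 in Dorsal 158.7. The 3 populations in Cd36+ V. had a median of 422.3, the 3 in Dlg2+ D. 516.0 and the 7 in Dlg2+ V. 563.2. In the Ventral cluster, which held 76 populations, the median was 205.9 but the range was 7.01 to 904.5, and the highest of the 134 populations, Olfr166, had 79.5% of its neurons there.

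Receptor identity had been called from the receptor genes alone, so that it could be tested. UMIs were summed for each mouse and population with at least 3 neurons (499 sums), and edgeR's quasi-likelihood F test with mouse as a block asked of each gene whether the 134 populations differed. Of 2494 genes tested, 1256 passed at a Benjamini-Hochberg adjusted p of 0.05, which is 50.4% of the genes. All 3 members that passed the filter on low counts were called: S100a5 (adjusted p = 1.45e-227, the third smallest p of all genes), S100a6 (9.35e-46) and S100a13 (7.49e-15). The other 7 members were too low to be tested. A gene passed that filter by reaching a level in only a few of the 499 sums. Genes of low level therefore entered through the sums where they were highest. This holds for S100a6 and S100a13 (median levels 0.246 and 0.889), so that their calls, and the count of 3, add little. With only a minimum total count of 10 in place of the filter, 2033 of 14291 genes were called, and S100z was among them (1.95e-06). The test gave S100a5 by the same edgeR fit in the 96 ventral populations too, and in the 42 populations with 5 or more neurons in each mouse. All 4 listed genes known to follow OSN activity were called as well: Kirrel2 (5.06e-167) and Kirrel3 (1.75e-63), adhesion molecules that sort axons, Efna5 (9.52e-64), an ephrin, and Epha5 (9.00e-117), its receptor. Kirrel3 and Efna5 were also of low level (means of 0.435 and 1.017 over populations), so that their calls, and the count of 4, add little. Of the listed S100 partners, Cacybp and Bsg, a receptor for S100a9, were tested and not called (adjusted p = 0.277 and 0.392).

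Which genes ran with S100a5 over the 134 populations is given as Spearman's rho of mean levels, a description in which all points share the 4 libraries. Over the 1896 genes with a mean of at least 1 UMI per 10000 the median rho was −0.0777, with 9 genes over 0.7 and 11 under −0.7. The most alike was Pcp4l1 (rho 0.932, and 0.903 to 0.928 within a mouse), which encodes a small relative of PEP-19. Dlg2, a synaptic scaffold (0.795), Kirrel2 (0.791), Epha5 (0.790) and Lrrc3b (0.786) came next among these genes, while S100a3 (0.839) and S100a6 (0.798) were under that level. The most opposed were the ephrins Efna3 (−0.879) and Efna5 (−0.822), then Dcdc2a, a doublecortin-domain protein (−0.797), Ppp3ca, a calcineurin subunit (−0.767), and Gm11992 (−0.743). In Olfr166 neurons, for example, Pcp4l1 was at 76.9 and Efna3 at 0.630, and in Olfr728 neurons, with S100a5 at 5.91, Pcp4l1 was at 0.0955 and Efna3 at 7.87. Over the 12 groups made of the 10 retained types and the immune and blood clusters, Pearson's r of log2 levels between Dcdc2a and S100a5 was 0.978. Dcdc2a therefore ran with S100a5 over cell types and against it over receptor populations.

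Class I odorant receptors are the ancient, fish-like group and are expressed mostly in the dorsal epithelium. Class II holds all others. Neurons with a class I identity (1071 neurons, 106 populations) were compared with class II neurons (8641 neurons, 843 populations), summed per mouse. Because class and side are linked, dorsal class I neurons (1026, 99 populations) were compared with dorsal class II neurons (2248, 273 populations), where a population counted as dorsal if it had more Nqo1 than Nfix UMIs. Dorsal class II neurons were also compared with ventral ones (6333 neurons, 541 populations). These comparisons share neurons. In class I against class II, 2212 of 11835 genes were called (18.7%; 9.73% higher and 8.96% lower), and 5 of the 9 members tested were called, all higher in class I. In class I against dorsal class II, 776 of 9878 genes were called (7.86%; 4.60% higher and 3.26% lower), and 4 of 7 members were called, all higher in class I. In dorsal against ventral class II, 2688 of 11682 genes were called (23.0%; 10.9% higher and 12.1% lower), and 3 of 8 members were called, 1 higher and 2 lower in dorsal neurons. S100z passed the filter on low counts through class I neurons only, so that it could enter both class comparisons only as a gene higher there. S100a10 likewise entered the side comparison through ventral neurons. The counts of members called, and their directions, were thus partly set by the filter. With 4 mice an exact sign-flip test of within-mouse ratios cannot go below p = 0.125, so the calls rest on the model across genes. The ± beside a log2 difference is the SE of that model and not the spread over mice. In mouse 1 to 4 the log2 ratio of class I to class II was 0.074, 0.061, 0.261 and 0.167 for S100a5. For S100a6 on the dorsal side it was 1.338, 1.168, 1.584 and 2.295.

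S100a5 differed little between these large groups, set against its spread among populations. In class I neurons it was 252.8, 214.9, 298.2 and 271.0, and in class II neurons 240.2, 206.0, 248.9 and 241.3. The ranges overlapped, but class I was higher in each mouse, by log2 0.20 ± 0.02 (SE; edgeR adjusted p = 7.96e-13). On the dorsal side class I exceeded class II by 0.36 ± 0.02 (4.74e-45), with dorsal class II neurons at 207.3, 179.0, 228.7 and 204.0. Dorsal class II neurons lay below ventral ones (248.1, 213.0, 256.4 and 248.7) in each mouse and fell by 0.23 ± 0.02 (2.45e-13). Without mouse as a block none of the 3 calls held (adjusted p = 0.355, 0.134 and 0.239). For S100a5 the class difference also turned with the weight of the populations: the median over the 15 class I populations was 146.3 and over the 119 class II populations 198.1, a ratio of 0.7385. On the dorsal side the medians were 150.7 and 137.4. Class I populations with 20 or more neurons (426 neurons) had a pooled level of 155.1, and the 91 smaller ones (645 neurons) 329.3.

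S100z was a gene of young neurons and of class I neurons. By stage it was highest in INP, at 1.18, 0.654, 0.899 and 0.873 UMIs per 10000 (0.901 ± 0.214), then 0.393 ± 0.095 in iOSN1, 0.182 ± 0.094 in iOSN2 and 0.0468 ± 0.0121 in mature neurons. INP and iOSN1 did not overlap, nor did iOSN2 and mature neurons, whereas iOSN1 and iOSN2 did. INP were 19.2-fold above mature neurons. A UMI was found in 33.2% of INP (17.2% at 2000 UMIs) and in 1.80% of mature OSNs (0.718%), but in none of 336 sustentacular and 124 Mv1 cells, which allows shares of cells with a UMI of up to 0.893% and 2.42% and sets no limit on cells that express the gene. In the 202 globose basal cells, the stage before, there was 1 UMI. The level therefore appeared at the precursor stage and was lower at each later one.

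In mature neurons with a receptor identity S100z had 239 UMIs, and 190 of them (79.5%) were in class I neurons. Class I neurons were at 0.345, 0.210, 0.392 and 0.415 and class II neurons at 0.0091, 0.0119, 0.0129 and 0.0089. The groups were far apart, and the log2 difference was 5.06 ± 0.21 (edgeR adjusted p = 6.47e-46). Because S100z passed the filter through class I neurons only, the p-values of both class comparisons add no support to these levels. A UMI was found in 11.95% of class I and 0.463% of class II neurons, at median depths of 4930 and 4793. Within the dorsal side, dorsal class I neurons were at 0.352, 0.223, 0.406 and 0.422 and dorsal class II neurons at 0.0206, 0.0192, 0.0333 and 0.0126, a log2 difference of 4.04 ± 0.24 (9.60e-60). S100z UMIs occurred in 52 of the 106 class I populations. The 3 highest populations with 20 or more neurons were all class I: Olfr553 (1.84 ± 0.50, 24 UMIs, with a UMI in 71.4% of 21 neurons), Olfr549 (0.560 ± 0.507) and Olfr566 (0.515 ± 0.197). Without the Olfr553 neurons, left out after the values were seen, the difference was 4.91 in all neurons and 3.88 on the dorsal side, and both calls held. The 3 class I populations with the most S100z UMIs held 31.58% of those in class I, and 8 populations held 50%. Among clusters Cd36+ D. was highest (0.623 ± 0.205), followed by Dlg2+ D. (0.284 ± 0.126), with overlapping ranges. Over the 12 groups the genes most like S100z were Arl14epl (r 0.972), Gm16579 (0.951) and Map1lc3b (0.941).

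**Figure D4:**
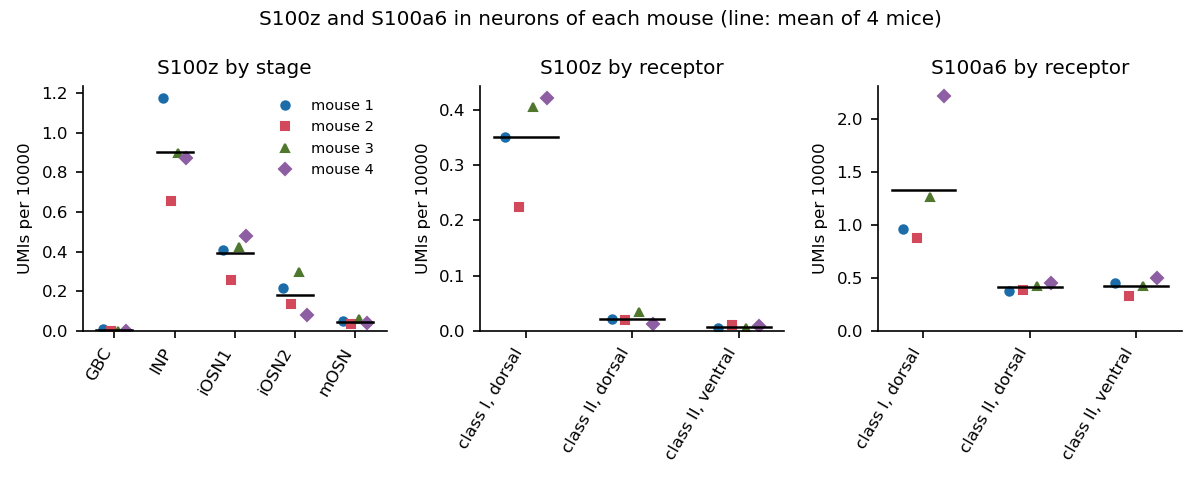
S100z by stage of the neuronal lineage (left), and S100z (middle) and S100a6 (right) in neurons grouped by receptor class and side, in UMIs per 10000. Symbols are the 4 mice and lines their means. S100z lies at 0.223 to 0.422 in dorsal class I neurons and at 0.0333 or less in the other groups, and of the 3 groups shown S100a6 is highest in dorsal class I neurons in each mouse. Ventral class I neurons are not shown.

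S100a6 combined a high level in HBC2 with a low one in OSNs, where its summed level was higher in class I than in class II neurons. In HBC2 it was 37.0, 21.2, 23.0 and 22.9 (26.0 ± 7.4), mouse 1 standing above the others, and in HBC1 1.37, 2.81, 1.16 and 1.37. The mean was 15.5-fold higher in HBC2. Immune barcodes followed HBC2 (14.2 ± 3.3) and lay below it in every mouse. Within HBC2 the gene was low in the cells with Cyp2g1 and no Krt5. These 96 cells were at 4.06, 3.72, 0.891 and 0.487, and the 390 cells with Krt5 and no Cyp2g1 at 47.5, 32.5, 33.8 and 37.8. The 52 cells with neither were at 36, 8.71 and 19 in mouse 1, 3 and 4. Only 6 cells had both. Between the 2 labels S100a6 did not follow Krt5, which was at 21.3 in HBC1 and 7.279 in HBC2. The 54 HBC2 cells with the highest counts (of 544) held 35.9% of the S100a6 UMIs, and 14.7% of the cells had none. The genes most like S100a6 over the 12 groups were Ly6a (r 0.867), Bpifa1 (0.852), a secreted airway protein, and Apoe (0.845).

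In mature OSNs S100a6 was at 0.539 ± 0.091, and class I neurons carried more of it. They were at 1.5, 0.930, 1.31 and 2.25 against 0.445, 0.350, 0.424 and 0.493 in class II neurons, a log2 difference of 1.85 ± 0.07 (edgeR adjusted p = 1.81e-47). On the dorsal side the difference was 1.70 ± 0.09 (4.71e-75), with dorsal class I neurons at 0.962, 0.874, 1.27 and 2.22 and dorsal class II at 0.380, 0.389, 0.422 and 0.452. The groups did not overlap in either comparison. Dorsal and ventral class II neurons differed by −0.05 ± 0.08 and were not called (0.726). Of the populations with 20 or more neurons, the 3 highest were Olfr553 (5.001 ± 4.25, class I), Olfr370 (2.39 ± 1.74) and Olfr731 (2.20 ± 0.98), the last 2 class II and ventral. The Olfr553 mean rested on mouse 4: its levels were 3.87, 1.26, 3.755 and 11.1, the last from 3 neurons. Without Olfr553 the differences were 1.79 and 1.62. Olfr553 held only 5.89% of the class I UMIs, so that leaving it out tests little. Olfr65 (13.74%), Olfr599 (11.41%) and Olfr571 (9.33%) held the most and were not left out. Olfr65 was at 32.16 in mouse 4 and Olfr571 at 30.21 in mouse 1. Dorsal class I neurons held 664 of the 815 class I UMIs but were 1026 of the 1071 class I neurons. The other class I neurons thus held more of the gene for their number. In mouse 1 the level was 1.5 in all class I neurons and 0.962 in the dorsal ones. Of the 815 UMIs, 54 were in 1 neuron with Olfr613. In class I, 73 of 106 populations had an S100a6 UMI, the 3 with the most held 34.48% of the class I UMIs, and the pooled level was 2.119 in the 91 populations under 20 neurons and 0.4796 in the 15 larger ones. Medians over the larger populations did not keep this order: the median was 0.226 over 14 dorsal class I populations, above 0.137 over 24 dorsal class II populations but below 0.271 over 95 ventral class II populations. By cluster, Dlg2+ D. led (2.66 ± 0.82) and lay apart from Dlg2+ V. (1.55 ± 0.32), while Calb2+ D. and Calb2+ V. were lowest (0.0801 and 0.0309).

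The order of S100a6 over populations resembled that of its neighbour S100a5 (rho 0.798 over 134 populations; 0.517 to 0.654 within a mouse). As S100a6 begins 1101 bases past the end of S100a5 on the same strand, its UMIs were also counted against those of S100a5. The Ventral cluster had 753 S100a6 UMIs beside 478453 of S100a5, Dlg2+ V. had 683 beside 259363, Cd36+ D. 98 beside 27051 and Dlg2+ D. 601 beside 140802. The ratio was thus not constant over neurons. The part of reads that run past the end of S100a5 was not tested.

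S100a1 and S100a13, which share the 42 bases shown above between their starts, were both highest in Mv2, the ionocyte-like microvillar cells. S100a1 was at 15.3, 13.6, 12.6 and 14.7 there (14.1 ± 1.2), and no other type overlapped with it. Mv1 (5.66 ± 0.66) and HBC2 (5.29 ± 0.56) came next and overlapped, then sustentacular cells (3.64 ± 0.36). Mature OSNs were at 0.107 ± 0.014, 131.6-fold below Mv2. A UMI was found in 96.5% of Mv2 cells (88.0% at 2000 UMIs) and 4.86% of mature OSNs (2.02%). S100a13 was at 7.20, 7.16, 5.27 and 7.14 in Mv2 (6.69 ± 0.95), mouse 3 standing below the others, and 2.12 ± 0.11 in HBC2. In mature OSNs it was 1.14, 1.10, 0.962 and 1.10 (1.07 ± 0.08), 6.24-fold below Mv2 but above the iOSN1 level (0.253 ± 0.056) by 4.24-fold. So S100a13 was present in both Mv2 and neurons, and S100a1 was nearly absent from neurons. Genes most like S100a1 over the 12 groups were Rbm47 (r 0.976), Spint1 and Tmc4 (both 0.967), and those most like S100a13 were Nt5dc1 (0.924), Agtrap (0.920) and Stim1 (0.901), the calcium sensor of the endoplasmic reticulum.

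In OSNs S100a13 was again highest in the Dlg2+ clusters, at 2.39, 2.75, 2.08 and 2.06 in Dlg2+ D. and 1.63, 1.64, 1.55 and 1.48 in Dlg2+ V., which did not overlap. The means were lowest in the Cd36+ clusters (0.431 ± 0.095 ventral and 0.407 ± 0.129 dorsal), not in the Calb2+ clusters as for S100a5. Calb2+ D. (0.605) stood next above and overlapped with Cd36+ V., and Cd36+ D. rested on 41 UMIs. The 3 highest populations with 20 or more neurons were Olfr166 (2.59 ± 0.55), which also led for S100a5, Olfr1025-ps1 (2.35 ± 1.52) and Olfr309 (2.29 ± 1.21). The rank correlation with S100a5 over populations was 0.362 (0.107 to 0.407 within a mouse). Between 2 mice the order of S100a13 over populations was shared only weakly (rho 0.188 to 0.346), so that its highest populations are not stable ranks. Class I neurons were at 1.36, 1.18, 1.09 and 1.44 and class II neurons at 1.10, 1.06, 0.974 and 1.06 (log2 0.33 ± 0.06, edgeR adjusted p = 1.44e-05). Within the dorsal side the difference was 0.14 ± 0.07 and was not called (0.298). Dorsal class II neurons exceeded ventral ones in each mouse (1.26, 1.196, 1.09 and 1.18 against 1.03, 1.01, 0.936 and 1.03; 0.25 ± 0.05, 0.00014), a call that was lost without the mouse block (0.0522). S100a1 in neurons rested on few UMIs. It was called higher in class I than class II (82 and 455 UMIs; 0.59 ± 0.18, 0.0125) and than dorsal class II (0.72 ± 0.24, 0.035), and both calls were lost without the mouse block (0.0865 and 0.156). The first was also lost without mouse 1, 2 or 3 and the second without mouse 2, 3 or 4.

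S100a10 was highest in immune barcodes and in basal and sustentacular cells, S100a11 in Mv2 and HBC2, and both were low in neurons. S100a10 was at 4.63 ± 0.60 in immune barcodes, 3.14, 2.59, 3.48 and 2.73 in HBC1 (2.99 ± 0.40), 2.75 ± 0.58 in HBC2 and 2.27 ± 0.30 in sustentacular cells. Mature OSNs were at 0.0254 ± 0.0042, 117.6-fold below HBC1. Mv1 cells, although epithelial, had only 3 UMIs of S100a10 in 124 cells (0.0819 ± 0.112). S100a11 did not show this gap: it was 12.2, 10.0, 10.2 and 10.3 in Mv2 and 12.8, 7.93, 9.85 and 10.4 in HBC2. Then came immune barcodes (mean 8.75), Mv1 (7.69 ± 1.16), HBC1 (6.64 ± 0.91) and sustentacular cells (4.98 ± 0.40), with overlapping neighbours down to there. S100a11 was 0.0236 ± 0.0074 in mature OSNs. Both genes were higher in INP than in mature neurons in each mouse, 5.76-fold for S100a10 and 10.1-fold for S100a11. In class II neurons S100a10 fell by 1.45 ± 0.42 on the log2 scale from ventral to dorsal (12 dorsal and 105 ventral UMIs; edgeR adjusted p = 0.0058), which was lost without mouse 1 (0.203), without mouse 4 (0.0702) and without the block (0.0684). The difference itself was −0.82 without mouse 1 and −2.69 without mouse 3. S100a10 had entered this comparison through ventral neurons, so its p adds no support to the levels. Genes most like S100a10 over the 12 groups were Add3 (r 0.966), Cnn2 (0.961) and Atp1b3 (0.944), and those most like S100a11 were Cebpd (0.987), Zfp36 (0.982) and Tmem176a (0.974).

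The listed partners overlapped with these members in part. Anxa2, the partner of S100a10, was highest in HBC1 (5.87, 4.68, 6.11 and 5.23), then HBC2 (4.50 ± 0.59), immune barcodes (3.84 ± 0.64) and sustentacular cells (3.76 ± 0.19), the same 4 groups that led for S100a10. Ahnak was also highest in HBC1 (5.14 ± 1.00). Anxa1, the partner of S100a11, was highest in sustentacular cells (14.6 ± 1.3) and Mv1 (8.07 ± 0.70), whereas S100a11 was highest in Mv2 and HBC2. Anxa6 (1.27 ± 0.05) led in sustentacular cells and Anxa11 (2.33 ± 0.43) in Mv1. Cacybp was spread over the neurons (3.34 ± 0.28 in iOSN2 and 3.29 ± 0.36 in mature OSNs), where its partner S100a6 was low. Bsg was highest in Mv2 (18.1 ± 1.4). The receptor genes Ager and Tlr4 were scarce everywhere, with highest means of 0.0207 and 0.0883. Of 9 partners 3 passed the filter in the class comparisons, and 1, Anxa11, was called, in class I against class II (edgeR adjusted p = 0.0177), where 18.7% of all genes tested were called, so that the count says little about the partners.

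S100a8 and S100a9 were genes of immune barcodes, which the study clustered before it limited the table to epithelial cells. S100a8 was at 200.4, 161.6, 175.3 and 200.9 in immune barcodes (184.6 ± 19.4), and S100a9 at 227.9, 204.9, 213.5 and 252.2 (224.6 ± 20.7). In mature OSNs they were 2263-fold and 2214-fold lower. Over the 12 groups each was the most like the other (r 0.996), and Camp and Ngp, 2 genes of neutrophil granules, came next for both. Sustentacular cells came second, with S100a8 at 3.92, 2.77, 0.0914 and 0.462, but 7 cells held 990 of the 1031 UMIs of the 2 genes. Without these 7 cells, chosen after the values were seen, S100a8 was 0.0853 ± 0.0733 there. Mature OSNs had 0.0202, 0.202, 0.0732 and 0.0309, highest in mouse 2, which also had the most immune barcodes (889 against 379 to 596). Its part in the neuronal level was not tested.

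The 2391 immune barcodes were clustered again for this description into 14 clusters, named only where markers fixed for this work allowed it. Cluster 2 was neutrophil-like, with Retnlg, Mmp9, Mmp8 and Ltf among its 10 leading genes. It held 275 barcodes and had S100a8 at 1158, 812.5, 895.7 and 1180, and S100a9 at 1415, 1158, 1230 and 1603. Cluster 6 was left unnamed: 3 of the 9 neutrophil markers (Cxcr2, Csf3r and Mmp9) were 2-fold or more above the other barcodes, none was among its 10 leading genes, and Adamdec1, Siglecf and Stfa2l1 led it. It lay lower than cluster 2 in every mouse: S100a8 was 518.5, 598.2, 478.0 and 503.0 in its 198 barcodes. The 2 clusters also differed in S100a6 (56.6 ± 6.2 and 8.22 ± 4.14), whereas S100a11 overlapped (29.3 ± 12.3 and 31.1 ± 2.1). Cluster 1 was also left unnamed: its 59 barcodes had 4 of the 9 neutrophil markers at 2-fold or more, but were led by secretory genes such as Bpifa1 and Scgb1c1 and were deep (median 8925 UMIs). It had S100a8 at 939.2 ± 103.8 and held 38.8% of all S100a8 UMIs of the immune barcodes. The macrophage-like cluster 4, in contrast, had 0.987 ± 1.51.

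**Figure D5:**
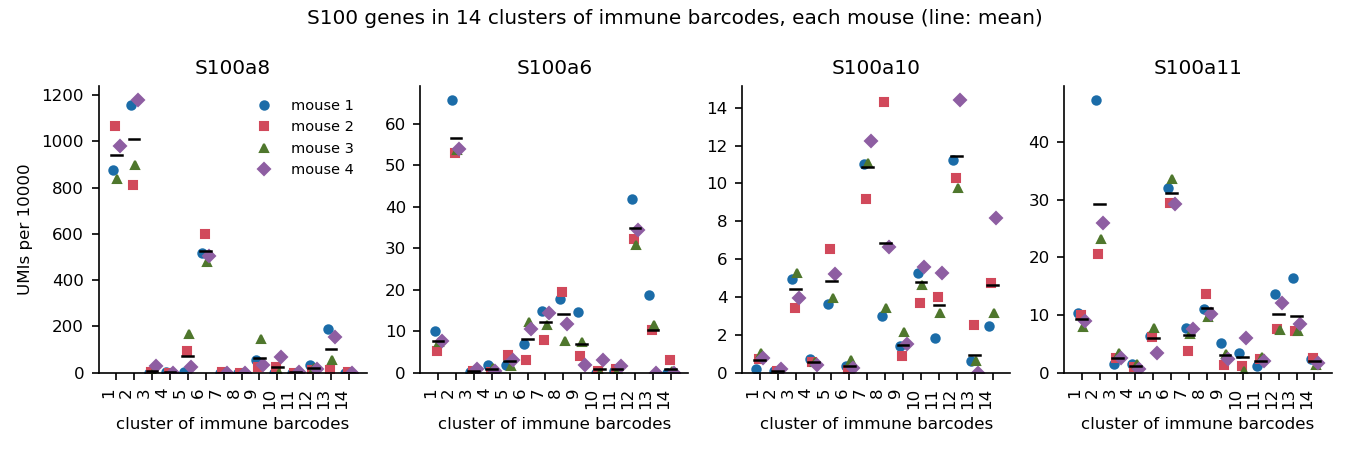
S100a8, S100a6, S100a10 and S100a11 in 14 clusters of immune barcodes (horizontal axis), in UMIs per 10000, with each mouse as a symbol and a line at the mean. S100a8 stands out in clusters 1, 2 and 6, S100a6 in 2 and 12, S100a10 in 7 and 12, and S100a11 in 2 and 6.

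S100a10 and S100a4 took other immune clusters, whereas S100a6 was highest in cluster 2 and S100a11 in clusters 6 and 2. S100a10 was highest in the unnamed cluster 12 (11.3, 10.3, 9.76 and 14.4), whose 373 barcodes had haemoglobin genes and the monocyte genes F13a1, Ccr2 and Ly6c2, and in the T or NK cell-like cluster 7 (11.02, 9.19, 11.1 and 12.2), and it was 0.117 ± 0.051 in cluster 2. Cluster 12 also led for S100a4 (23.9 ± 5.7) and was second for S100a6 (34.8 ± 5.0). Cluster 9 had all 7 mature OSN markers and held 85.6% of the S100a5 UMIs of immune barcodes. The S100a5 level of 17.1 ± 6.1 in immune barcodes therefore came mostly from barcodes with the genes of mature neurons.

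S100b had 128 UMIs in the whole table. Of these 76 were in 18 cells labelled GBC (11, 2, 2 and 3 cells in mouse 1 to 4), which gave that label 0.453, 0.290, 0.255 and 0.203. The 18 cells carried few markers of their label: none had a UMI of Kit, Top2a or Hes6 and 1 had Mki67, while the other 184 had Hes6 in 160 cells. They had Apoe in 18 cells, Fabp7, a gene of olfactory ensheathing glia, in 8, and the collagen gene Col1a2 in 11. S100a6 was at 60.5 in them and at 3.05 in the other 184, and their median depth was 4050 UMIs against 10700. Without them S100a6 in GBC was 3.35 ± 3.21 in place of 4.62 ± 3.42. In mature OSNs S100b had 14 UMIs in 10519 cells, and in HBC1 and sustentacular cells 0 in 210 and 336 cells, which allows shares of cells with a UMI of up to 1.43% and 0.893%. Over the 12 groups the genes most like S100b were Atp6v1g3 (r 0.984), Ibsp (0.955) and Cldn5 (0.954), values that rest on the same few cells.

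Besides the members, 8 genes were looked up: other S100 genes and S100pbp. Of these, S100a3, S100a2 and S100a4 were called in comparisons of neurons. In class I against class II 2 of the 4 tested were called (18.7% of all genes), and against dorsal class II 1 of 3 (7.86%). In dorsal against ventral class II it was 2 of 4 (23.0%), and among populations 1 of 1 (50.4%). With so few tested, these counts say little about the list. The annotated S100a2 (chr3:90590247-90591508) lies inside S100a3 (chr3:90560578-90602702) on the same strand, so that their UMIs may not be separable, and S100a4 ends before S100a5. S100a3 was highest in Dlg2+ V. (1.04, 0.778, 0.960 and 1.13) and was called among populations (edgeR adjusted p = 5.81e-35). It was of low level there (mean of 0.267 over populations), so that this call adds little. It followed S100a5 over populations (rho 0.839, and 0.550 to 0.673 within a mouse). In per mille of S100a5 UMIs, its cluster means lay between 0.536 (Cd55+ V.) and 1.68 (Cd55+ D.), while S100a5 ran from 11.67 to 599.6. The cause was not tested. S100a3 was higher in class I than in class II neurons (0.50 ± 0.12, 0.000419) and than in dorsal class II neurons (0.78 ± 0.15, 9.84e-06). It was lower in dorsal than in ventral class II neurons (−0.46 ± 0.11, 0.000584). S100a2 was higher in class I than in class II neurons (0.45 ± 0.14, 0.0159). S100a4, in immune barcodes at 6.33 ± 1.22, was lower in dorsal than in ventral class II neurons (−1.65 ± 0.26, 2.11e-07). In neurons S100a4 rested on few UMIs: 10 in Dorsal and 19 in Dlg2+ D., against 125 in Ventral and 99 in Dlg2+ V. S100a14 and S100a16 were highest in HBC2 (1.503 ± 0.49 and 2.36 ± 0.29), S100g in INP (0.142 ± 0.063), and S100a7a had 7 UMIs in all. S100pbp, whose product binds S100P, differed in none of the class and side comparisons. Among the activity genes, Kirrel2 and Epha5 were lower in class I than in class II neurons (−0.46 ± 0.04, 6.09e-21 and −0.22 ± 0.04, 3.3e-07) but higher than in dorsal class II neurons (0.21 ± 0.04, 3.37e-05 and 0.19 ± 0.04, 0.000201). Both were also lower in dorsal than in ventral class II neurons (−0.83 ± 0.03, 1.56e-38 and −0.50 ± 0.03, 2.48e-23). Kirrel3, against which S100a5 ran over populations (rho −0.562), was lower in class I than in dorsal class II neurons (−0.52 ± 0.10, 1.19e-05) and higher in dorsal than in ventral class II neurons (1.10 ± 0.075, 4.16e-23). Efna5 was called only in the latter comparison (0.32 ± 0.05, 5.59e-07).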

How the data were processed

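Single cells of the main olfactory epithelium of 4 mice were sequenced from the 3′ end. The deposited matrices hold UMI counts per gene and barcode, made by the authors with Cell Ranger 6.0.1 on GRCm38, per the labels. A deposited merged table holds the same counts, the authors' cell types, clusters and receptor identities, and the percent of mitochondrial counts, which the authors used as a filter. Cell types, and the clusters of retained cells, are the authors'. Levels are UMIs per 10000, pooled per mouse and type, over 55511 genes.

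UMIs were summed per mouse and population or class and tested with edgeR 4.0.16 in R 4.3.3 (quasi-likelihood F test, TMM scaling, filterByExpr, receptor genes left out, Benjamini-Hochberg threshold 0.05 over all genes tested), with mouse as a block because the groups compared come from the same animal and library. The 4 libraries are separate mice. DESeq2 1.42.0 (Wald test and size factors), no block, no filter and leaving out each mouse were alternatives. Immune barcodes were clustered with scanpy 1.11.5 and leidenalg 0.10.2 (2000 variable genes, 30 components, 15 neighbours, resolution 0.5). Doublet scores called 3, 2, 4 and 36 barcodes in the 4 libraries, too few to be trusted, and an alternative left out the 4% with the highest scores. On simulated counts the test among populations recovered 97% of genes changed 2-fold, and the class test 79%, but 35.7% of those changed 1.5-fold. The simulations used genes kept by the filter, a fixed dispersion and no mouse effect, and changed many populations together. They do not describe genes of low count raised in a few populations. Intervals and floors of 3 counts cover counting error only.

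Named genes were the 10 members and the fixed lists of relatives, partners, activity and zone genes. Also named were the 5 highest and 5 lowest populations and the 5 most and 5 least alike genes for S100a5, and for other members the 3 highest populations and the 3 most alike genes over cell types (genes reaching 1 UMI per 10000, pseudocount 0.1). Members and lists were chosen with earlier results of these data known.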

Additional observations from a re-analysis of the deposited data

Results flagged for a closer look

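In 9 of 93 groups of 4 mice, 1 mouse stood apart from the other 3 by a gap above Dixon's 95% critical value, which chance gives in about 1 group in 20. Mouse 2 accounted for 4 of them. Its S100a5 level was 40.1 in HBC2, against 8.47 to 12.5 in the other mice, and 45.5 in Mv1, against 1.08 to 7.56. Its S100a6 level in HBC1 was 2.81, against 1.16 to 1.37, and its S100a5 level in Dlg2+ V. neurons was the lowest at 510, against 619.9 to 633.2. Mouse 1 was highest for S100a6 in HBC2 (37.0, against 21.2 to 23.0) and for S100a11 in Mv2 (12.2, against 10.0 to 10.3). Mouse 3 was highest for S100a1 in Mv1 (6.64, against 5.24 to 5.43) and lowest for S100a13 in Mv2 (5.27, against 7.14 to 7.20). Mouse 4 was highest for S100a5 in Olfr1039 neurons (5.05, against 0.917 to 1.204). All values are UMIs per 10000.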

How the results depend on the processing

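Of 416 alternative values for 57 results, 365 kept their direction and their side of the threshold. Without the replicate block (samples paired because they come from the same mouse) the genes called fell to 1056 in class I against class II, 203 in class I against dorsal class II and 1222 in dorsal against ventral class II, and 1134 among populations. With DESeq2's Wald test the 3 counts were 1017, 161 and 1153. Leaving out each mouse gave 1577 to 1802, 496 to 586 and 2084 to 2333 genes, and 938 to 1094 among populations. Without the filter 2033 genes differed among populations. The ratio of the highest to the lowest population of S100a5 was 435.4 to 807.5 with a mouse left out (807.5 without mouse 4) and 85.42 over populations with 40 or more neurons, of which 2 were under 20. S100a8 in immune barcodes was 159.6 as a mean over cells, 152.8 in barcodes with 2000 or more genes and 210.9 without the highest doublet scores. S100a9 was 180.3 and 256.2 under the last 2. S100b in GBC was 0.796 as a mean over cells and 0.1866 in cells with 2000 or more genes. Directions turned for uncalled members: in class I against class II S100a11 was −0.2444 to 0.8089 on the log2 scale with a mouse left out, and in class I against dorsal class II S100a9 was −0.3389 to 0.0393 (0.0057 without mouse 4). In dorsal against ventral class II S100a6 was −0.1193 to 0.0161, S100a9 −0.2585 to 0.3401 (0.0237 with DESeq2) and S100a11 −0.298 to 0.3038. The S100a5 ratio of class I to class II turned to 0.7385 with medians over populations. The cause of these changes was not tested. S100z, S100b and, in neurons, S100a1, S100a10 and S100a11 rest on few UMIs.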
